A study of Rattus norvegicus with 10 samples.

Results

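Lard feeding was compared with standard chow in the livers of male Wistar rats, an outbred laboratory stock. The comparison rested on the 2 arrays whose titles name the lard diet and the 2 whose titles name standard chow, out of 10 arrays over 5 diets. The lard rats had received a high-fat feed, 42% of energy from fat, over 12 weeks. The 6 arrays from olive oil, coconut fat and fish oil rats (the design text calls this fat cod liver oil), on the same fat share, entered the fit for the spread and a side-by-side view. Rats of all 5 diets had been fed for 12 weeks and fasted overnight, and the same liver lobe was taken. No fat share was given for chow, so the kind of fat, its amount and the remaining make-up of the feeds cannot be told apart in this comparison. Ages were not given in the sources used here.

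Affymetrix Rat 230 2.0 arrays report 1 MAS5 signal per probe set, a brightness summarised over short probes of one transcript. Of 31042 probe sets that are not controls, 18625 were bright enough to be tested. The trimmed mean signal (2% cut off each end) was about 100 on each array. Median signals were 31.5 and 36.8 on the lard arrays and 29.1 on each chow array, and the second lard array had the highest median of all 10. Across probe sets the lard arrays correlated with each other at r = 0.936, the chow arrays at 0.949, and lard with chow arrays at 0.929 to 0.942. Nothing in the labels tells whether an array holds RNA of 1 rat or of a pool, and p-values therefore reflect only how far these samples spread, which may be technical. The number of arrays limits the precision. The ratios of 3′ to 5′ control signals, a measure of RNA integrity, were 1.019 and 1.045 for GAPDH in lard livers, against 0.959 and 0.972 in chow livers, and at most 1.185 over all 10 arrays. For actin they were 2.155 and 2.097 in lard livers, against 2.221 and 2.151 in chow livers, and at most 2.749 over all 10 arrays. Each fold change is a difference in log2(signal + 3.1), lard minus chow, given with its standard error (SE), and it understates the change of dim genes.

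The fasted liver burns fatty acids, makes ketone bodies and turns amino acids into glucose, and it disposes of the amino group as urea. Aminotransferases and dehydratases take amino acids apart, and several of these enzymes are known to respond to the hormones of fasting and to dietary protein. Fatty acid synthesis is switched on by feeding through SREBP-1c, while fatty acids themselves act on the nuclear receptor PPAR-alpha, which drives genes of fat burning.

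Only 3 probe sets, 0.0161% of those tested, differed between lard and chow at limma's adjusted p of 0.05, and all 3 were lower with lard. Sds, the serine dehydratase that turns serine into pyruvate, had signals of 80.7 and 40.9 in lard livers, against 694 and 876 in chow livers. Got1, the cytosolic aspartate aminotransferase, had 375 and 367 in lard livers, against 1429 and 1288 in chow livers. Mettl7b, a methyltransferase found at lipid droplets and the endoplasmic reticulum, had 641 and 585 in lard livers, against 1750.1 and 1420.4 in chow livers. In each gene the lard arrays lay well below both chow arrays, by more than the distance between arrays of 1 diet. Sds fell by 3.69 on the log2 scale (SE 0.47), Got1 by 1.86 (SE 0.23) and Mettl7b by 1.36 (SE 0.16), each with an adjusted p of 0.0464 by limma. Each of these genes has 1 probe set on the array. A tissue piece cannot tell fewer cells of a type from less RNA per cell. At an unadjusted p under 0.05 there were 1489 probe sets (7.99%), 872 higher and 617 lower with lard. The median change over all probe sets was 0.043 on the log2 scale.

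The fold changes of these genes moved little with the processing, but the calls lay close to the threshold. Over every alternative the log2 fold change of Sds stayed between -4.15 and -3.22, that of Got1 between -1.94 and -1.79 and that of Mettl7b between -1.51 and -1.21. Sds, Got1 and Mettl7b all passed with another offset, with arrays shifted to the same 75th percentile, and with no or a stricter filter on dim probe sets. Quantile normalization left 0 probe sets called, and so did a floor in place of the offset. In a fit of only the lard and chow arrays, Sds and Got1 passed and Mettl7b did not. Leaving out the first lard array left 0 called. Without the second lard array 6 passed, none of them among the 3. Without the first chow array 1 passed, also outside the 3, and without the second chow array 4 passed, 3 of them higher and 1 of them Mettl7b. Mettl7b also stayed called when either fish oil array was left out, whereas Sds and Got1 did not.

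**Figure D1:**
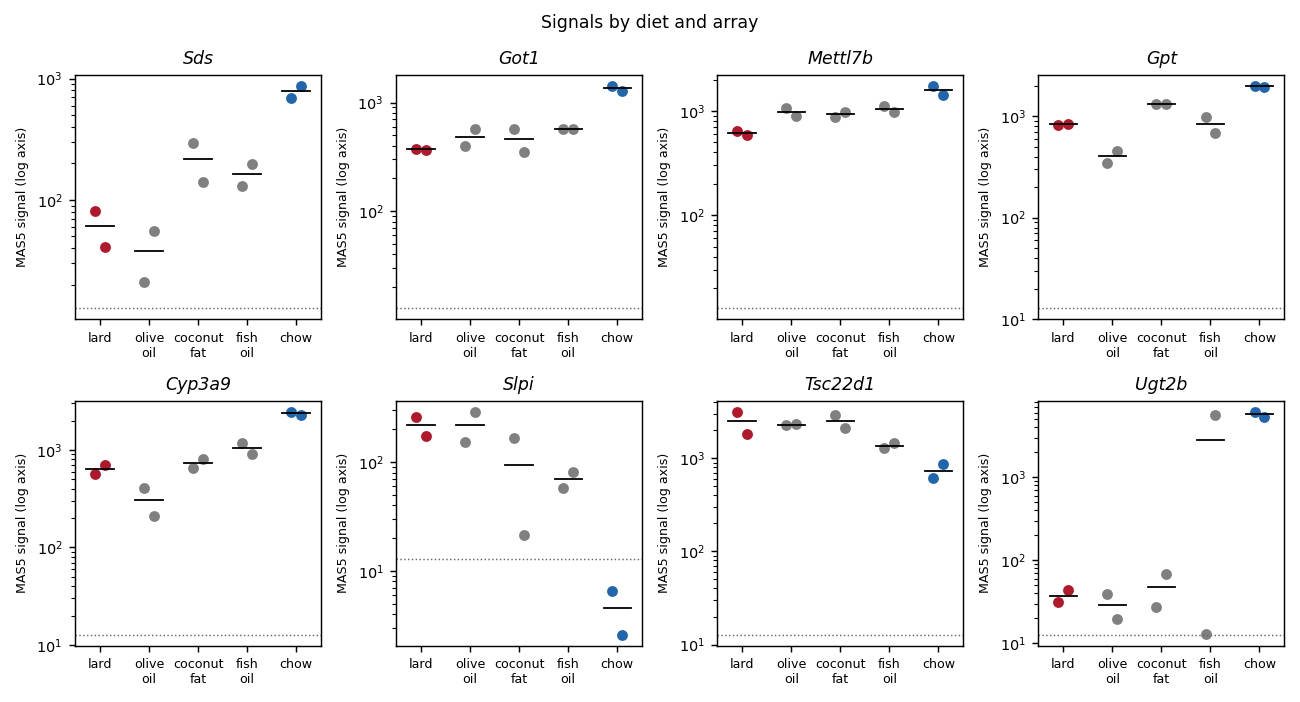
MAS5 signal on a log axis for 8 genes on each of the 10 arrays, with a point per array and a bar at the mean of each diet (n = 2 per diet); the dotted line marks a signal of 12.8, the highest of the bacterial trp control probe sets. In each panel both lard points lie apart from both chow points, and in the Ugt2b panel, which shows the brighter of 2 probe sets, 1 fish oil point stands with chow.

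The promoters of Got1 and Mettl7b are shown because these genes carried 2 of the 3 calls. The sequences come from RefSeq on GRCr8, run 5′ to 3′ on the gene's strand and span 250 bases before to 50 after an annotated start. Capitals mark CCAAT or, on the other strand, ATTGG, the CCAAT box bound by the factor NF-Y. Got1 lies on the minus strand at chr1:252329822-252330121, and Mettl7b on the minus strand at chr7:1975931-1976230.
Got1: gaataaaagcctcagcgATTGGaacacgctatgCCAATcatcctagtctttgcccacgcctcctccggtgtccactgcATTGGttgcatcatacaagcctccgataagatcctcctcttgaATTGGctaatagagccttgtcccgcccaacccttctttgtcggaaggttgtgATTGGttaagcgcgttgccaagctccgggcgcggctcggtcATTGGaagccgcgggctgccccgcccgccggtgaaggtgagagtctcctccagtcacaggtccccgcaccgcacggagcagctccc
Mettl7b: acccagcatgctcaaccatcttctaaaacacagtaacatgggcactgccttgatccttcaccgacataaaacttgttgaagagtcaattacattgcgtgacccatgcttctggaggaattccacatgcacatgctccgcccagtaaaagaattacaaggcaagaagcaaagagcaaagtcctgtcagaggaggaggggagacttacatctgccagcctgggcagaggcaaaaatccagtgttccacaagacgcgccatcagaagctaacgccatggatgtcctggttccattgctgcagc
The Got1 window held 6 CCAAT boxes, 1 as CCAAT and 5 as ATTGG, where 37.7% of 27457 rat promoter windows of this length held at least 1. The Mettl7b window held none. Neither window held TATAAA (14.3% of all windows on either strand), TGACG, the core of the cAMP response element (22%), or TGTTCT, the core of the glucocorticoid response element (20.1%). The CCAAT search was added after the Got1 sequence had been seen, and no measurement here bears on what binds there.

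At an adjusted p of 0.10, 4 further genes joined the 3. Cyp3a9, a cytochrome P450 of steroid and drug oxidation, had 562 and 704 in lard livers, against 2454 and 2309 in chow livers (log2 fold change -1.92, SE 0.26, adjusted p 0.0719 by limma). Gpt, the alanine aminotransferase, had 813 and 847 in lard livers, against 2004 and 1958 in chow livers (log2 fold change -1.25, SE 0.19, adjusted p 0.0847 by limma). Slpi, a secreted inhibitor of neutrophil proteases, had 263 and 174 in lard livers, against 6.5 and 2.6 in chow livers. Both chow arrays lay below 12.8, the highest signal among 3 bacterial control probe sets, so Slpi was at least 16.7-fold higher with lard (adjusted p 0.0847 by limma). Tsc22d1, a leucine zipper protein induced by TGF-beta, had 3152 and 1830 in lard livers, against 613 and 867 in chow livers (log2 fold change 1.72, SE 0.25). Its second tested probe set gave 0.80 (SE 0.30), in the same direction at a lower signal. In all 4 genes the lard arrays did not overlap the chow arrays, as was true of 23% of probe sets above chow and 16.7% below it.

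On the other high-fat arrays these genes lay away from chow as well. Got1 had 399 and 566 with olive oil, 572 and 350 with coconut fat and 573 and 567 with fish oil, all below the 1429 and 1288 of chow livers. Gpt had 346 and 459 with olive oil, 1326 and 1327 with coconut fat and 990 and 689.6 with fish oil, so the lard arrays were not the lowest. Sds had 20.9 and 55.5 with olive oil, 297 and 139.8 with coconut fat and 129.6 and 199.7 with fish oil. For Cyp3a9 the olive oil arrays, at 404 and 212, lay below the lard arrays. Mettl7b had 1066 and 886 with olive oil, 879 and 982 with coconut fat and 1125 and 974 with fish oil, and here the lard arrays were the lowest of all 10. Slpi was above the bacterial bound on all 8 high-fat arrays, with 152 and 289 for olive oil, 168 and 21.3 for coconut fat and 58.3 and 80.8 for fish oil. Tsc22d1 had 2269.8 and 2317 with olive oil, 2914 and 2114 with coconut fat and 1289 and 1460.1 with fish oil. These comparisons share the chow arrays and are given side by side only.

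**Figure D2:**
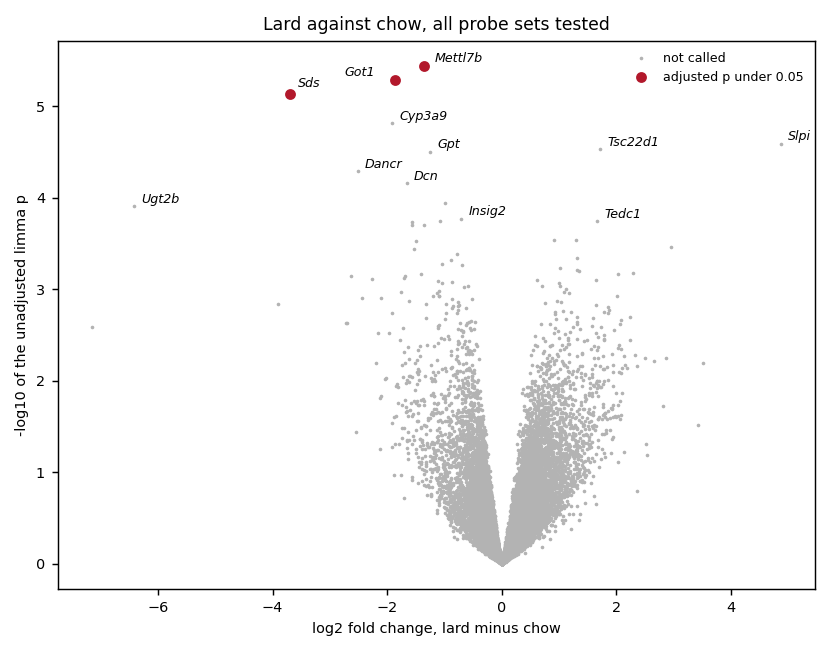
Each point is 1 of 18625 probe sets, with the log2 fold change of lard minus chow on the x axis and the -log10 of the unadjusted limma p on the y axis; red points passed at an adjusted p of 0.05. The red points are Sds, Got1 and Mettl7b, all on the lower side, while Slpi and Tsc22d1 lie highest on the other side.

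Further genes were named by their small p among those whose arrays did not overlap, and none of them passed in the fit used throughout. Ugt2b, a glucuronosyltransferase that couples steroids and drugs to glucuronic acid, stood out in size, with 4.9 and 7.2 in lard livers, against 975 and 614 in chow livers (at least 60.4-fold lower, adjusted p 0.212 by limma). Its brighter probe set had 31.2 and 43.7 in lard livers, against 6093 and 5309 in chow livers. On that probe set the fish oil arrays had 13.1 and 5645, 1 as low as lard and 1 as high as chow, while olive oil had 38.9 and 19.9 and coconut fat 27.2 and 68. Signals were therefore either low or at the level of chow, array by array. In a fit of only the lard and chow arrays, both Ugt2b probe sets passed limma's test. Members of this family are near-identical in sequence, so which copy was measured is uncertain.

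Dancr, a long non-coding RNA, had 8.2 and 8.9 in lard livers, against 67.9 and 59.5 in chow livers (at least 4.97-fold lower). Dcn, the matrix proteoglycan decorin, had 34.6 and 44.3 in lard livers, against 115 and 148 in chow livers (log2 fold change -1.66, SE 0.27). Nnmt, which methylates nicotinamide, had 529 and 361 in lard livers, against 864 and 1004 in chow livers (-1.09, SE 0.20). Insig2, the endoplasmic reticulum protein that holds back SREBP activation, lay at -0.71 (SE 0.13) and at -0.42 (SE 0.14) on its other probe set. Wsb1, a ubiquitin ligase subunit, lay at -1.35 (SE 0.25), and the ubiquitin ligase Ubox5 at -1.50 (SE 0.29). Limma's adjusted p ran from 0.12 for Dancr to 0.28 for Ubox5 over these 6 genes. The second Ubox5 probe set gave -0.32 (SE 0.43), with 21.3 and 24.6 in lard livers, against 27.9 and 30.9 in chow livers.

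On the higher side, 2 enzymes that handle vitamin A were among those of smallest p. Aldh1a1, a retinal dehydrogenase, had 870.2 and 985 in lard livers, against 291 and 455 in chow livers. Bco1, which cleaves beta-carotene to retinal, had 231 and 211 in lard livers, against 74.2 and 105 in chow livers. Their log2 fold changes were 1.34 (SE 0.28) and 1.30 (SE 0.25). Lipa, the lysosomal acid lipase that frees fatty acids and cholesterol from lipoproteins and droplets, had 1202 and 1430.4 in lard livers, against 858 and 843 in chow livers (0.62, SE 0.14). Ifit2, an interferon-induced protein, had 481 and 266 in lard livers, against 157 and 130.2 in chow livers (1.31, SE 0.27). Slc34a2, a sodium-phosphate transporter, had 622 and 430.3 in lard livers, against 67 and 231 in chow livers, and its chow arrays lay far apart.

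Impa2, an inositol monophosphatase, lay at 1.02 (SE 0.21), Tedc1, a centriole protein, at 1.67 (SE 0.30) and Ccdc141 at 2.29 (SE 0.49). Rpia, the ribose-5-phosphate isomerase of the pentose phosphate pathway, lay at 1.65 (SE 0.36) on 1 probe set and at 0.31 (SE 0.25) on the other. A probe set for ribosomal protein Rpl3 lay at 0.92 (SE 0.18), whereas the brighter Rpl3 probe set lay at -0.25 (SE 0.14). The probe sets of Rpl3 thus disagreed in direction. Limma's adjusted p was 0.218 for Tedc1 and 0.28 for Bco1, and at most 0.374 for the others named on the higher side.

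Beside single genes, 29 lists of liver pathway genes were described, with each gene represented by its brightest probe set. Over 10470 genes, both lard arrays lay above both chow arrays in 2197 (21%) and below both in 1911 (18.3%), and the median change was 0.014. The lists are read against these shares, which were not matched for brightness. Over all probe sets the median change was 0.082 with no filter on dim probe sets. With the lowest 60% left out it was 0.0079. The part of brightness in the list shares was not tested. No list was tested, and apart from Sds and Got1 no list member passed limma's test over all probe sets (3 of 10470 genes, 0.0287%, passed as lower and 0 as higher).

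**Figure D3:**
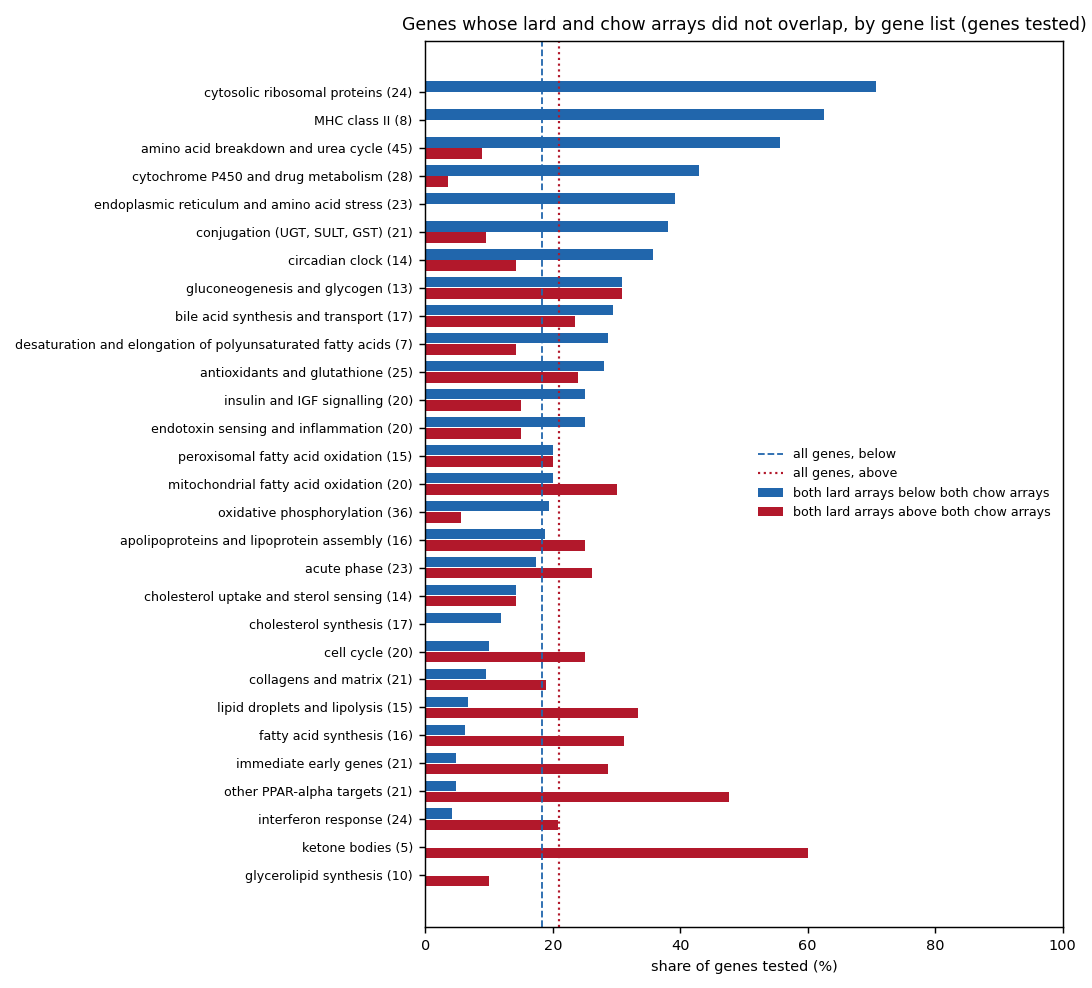
Share of the tested genes of each list (number in brackets, x axis in percent) whose 2 lard arrays lay below (blue) or above (red) both chow arrays, with the shares over all 10470 genes as dashed (18.3%) and dotted (21%) lines. Blue bars reach furthest past their line for ribosomal proteins, MHC class II and amino acid breakdown; red bars do so for ketone bodies and other PPAR-alpha targets.

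Genes of amino acid breakdown and the urea cycle were mostly lower with lard. Of 45 tested, 25 had both lard arrays below both chow arrays and 4 above, with 34 of 45 below 0 and a median of -0.24. Sds, Got1 and Gpt, given above, lay lowest of the list, and Gpt did not pass. Aass, which starts lysine breakdown, had 2159.8 and 2078 in lard livers, against 3361 and 3356 in chow livers (-0.66, SE 0.15). The following members were chosen after their values were seen. Asl, the argininosuccinate lyase of the urea cycle, had 900.3 and 563 in lard livers, against 1884 and 1249.6 in chow livers (-1.10, SE 0.28). Hal, the histidine ammonia-lyase, had 1079 and 612 in lard livers, against 1769 and 1365 in chow livers (-0.93, SE 0.25). Cbs, which joins homocysteine to serine, had 638 and 555 in lard livers, against 1070.2 and 977 in chow livers (-0.78, SE 0.19). These enzymes act on different amino acids, and none overlapped chow.

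Gls2, the liver glutaminase, lay at -0.71 (SE 0.19) and Tat, the tyrosine aminotransferase, at -0.56 (SE 0.17). The list was not uniform. Agxt2, a mitochondrial aminotransferase for glyoxylate and beta-amino acids, had 958 and 789 in lard livers, against 613 and 611 in chow livers (0.50, SE 0.20). The median of the same list was -0.29 for olive oil, -0.15 for coconut fat and -0.32 for fish oil, each against the same chow arrays. Lard against the mean of these 3 diets had a list median of -0.039. Leaving out any of the 4 arrays of lard and chow left 26 to 34 of the 45 (57.8% to 75.6%) with the remaining lard arrays below the remaining chow arrays, where all genes gave 32.3% to 33.9%. Markers of periportal hepatocytes, the cells at the inflow side of the lobule where much of this breakdown takes place, had 8 of 11 below both chow arrays and a median of -0.17. That marker list holds Sds, Hal and Gls2 too, so it is not a separate reading, and its part in the result was not tested.

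**Figure D4:**
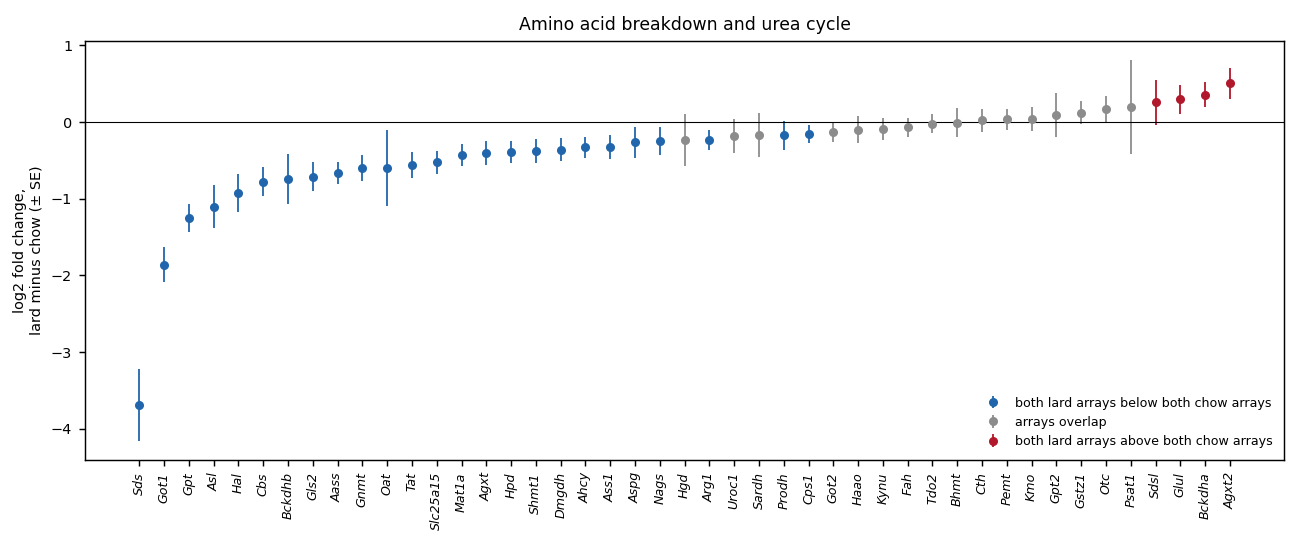
Log2 fold change of lard minus chow with its SE (limma, 10 arrays) for each of the 45 tested genes of amino acid breakdown and the urea cycle, ordered by size. Sds lies far below the rest, 25 genes have both lard arrays below both chow arrays, and 4 genes on the right lie above.

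Genes that clear drugs and steroids leaned the same way. Of 28 cytochromes P450 and related enzymes, 12 had both lard arrays below chow and 1 above (median -0.22). Ces2c, a carboxylesterase, had 125 and 104 in lard livers, against 258 and 241 in chow livers (-1.10, SE 0.25). Cyp2d4 lay at -0.77 (SE 0.18) and Cyp2c22, which acts on retinoids in the rat, at -0.49 (SE 0.16). Of 21 conjugating enzymes, 8 lay below and 2 above (median -0.27). Sult1b1, a sulfotransferase for thyroid hormones and phenols, had 3614 and 3274 in lard livers, against 6026 and 5606 in chow livers (-0.76, SE 0.21). Sult2a2, a steroid sulfotransferase, went the other way at low signal, with 41.9 and 38.5 in lard livers, against 19.1 and 7.6 in chow livers (1.49, SE 0.58). The acetyltransferase Nat8 lay at -1.34 (SE 0.42) and Sult1c2 at -1.58 (SE 0.56). The P450 median was -0.33 with olive oil, -0.0011 with coconut fat and 0.17 with fish oil, all against the same chow arrays.

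For fatty acid synthesis, the 2 chow livers differed from each other more than lard differed from chow. Fasn, the fatty acid synthase, had 823 and 521 in lard livers, against 106 and 1097 in chow livers. Scd, the stearoyl-CoA desaturase, had 5184 and 3915 in lard livers, against 548 and 5610.4 in chow livers. Srebf1, the gene of SREBP-1c, had 1264 and 1162 in lard livers, against 206 and 848 in chow livers. The first chow array was the lower of the 2 in 16 of 16 genes, by a median of 1.71 on the log2 scale, while the lard arrays differed by a median of -0.077. Both lard arrays lay between the chow arrays in 8 of 16 genes, against 15.1% of all genes. The list median of 0.64 (lard minus chow) thus depends on the chow array used. Without the first chow array it was -0.17, and without the second 1.51. Fasn and Scd were chosen after their values were seen.

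Of the 16 genes of fatty acid synthesis, 5 (31.2%) lay above both chow arrays, Srebf1 among them, and 1 (6.25%) lay below. All genes gave 21% above and 18.3% below. Pnpla3, a lipase of lipid droplets that follows SREBP-1c, had 168 and 209.6 in lard livers, against 11.2 and 49 in chow livers (2.81, SE 1.02, adjusted p 0.541 by limma). Me1, the malic enzyme that supplies NADPH, had 398 and 384 in lard livers, against 120 and 317 in chow livers (0.99, SE 0.50). Slc25a1, the mitochondrial citrate carrier, had 680.2 and 685 in lard livers, against 439.9 and 598 in chow livers (0.41, SE 0.21). The olive oil arrays reached further for Pnpla3, at 479.9 and 1767, while the coconut fat arrays were split at 399 and 24.4. Arrays of 1 diet therefore differed widely here outside chow too.

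**Figure D5:**
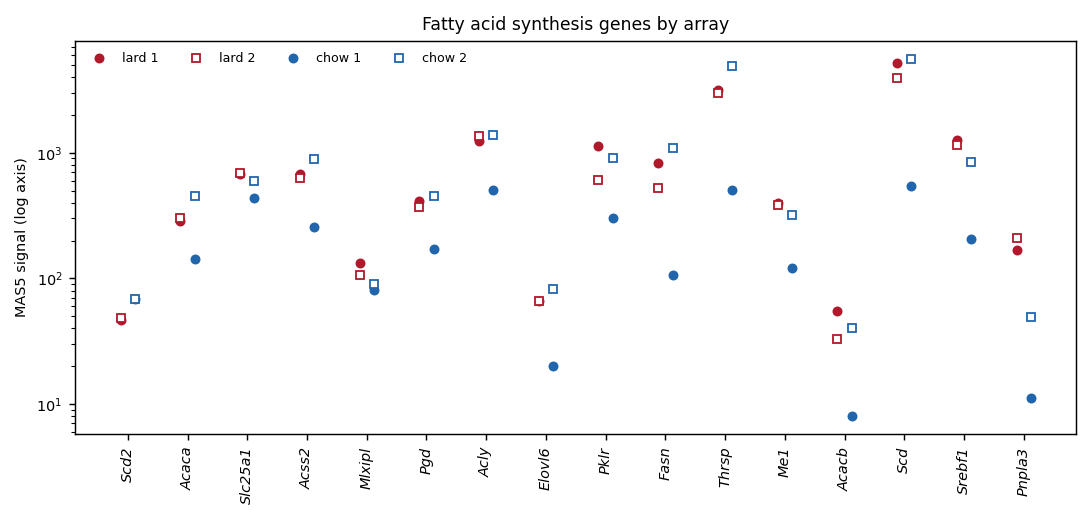
MAS5 signal on a log axis for the 16 tested genes of fatty acid synthesis on each lard array (red) and each chow array (blue), with filled circles for the first and open squares for the second array of a diet. The first chow array lies below the second in every gene, and in 8 genes both lard arrays fall between them.

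Cholesterol synthesis showed the same split, with the first chow array lower in 17 of 17 genes (median gap 0.97) and both lard arrays between the chow arrays in 9. The list median was -0.027, 2 genes lay below both chow arrays and 0 above. Tm7sf2, a sterol reductase, had 441 and 598 in lard livers, against 886 and 1285 in chow livers (-1.05, SE 0.42), and Ebp, a sterol isomerase, lay at -0.36 (SE 0.20). Pmvk, the phosphomevalonate kinase, had 292 and 371 in lard livers, against 139.9 and 339 in chow livers, so its arrays overlapped. Hsd17b7, a reductase of cholesterol synthesis, overlapped as well (-0.55, SE 0.38). Without the first chow array the median was -0.57, and without the second 0.48.

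Of 7 genes that desaturate and lengthen polyunsaturated fatty acids, 1 lay above and 2 below both chow arrays. Fads2, the delta-6 desaturase, had 1264 and 2097 in lard livers, against 593 and 1229.9 in chow livers (0.93, SE 0.31). Fads1, the delta-5 desaturase, had 2482 and 3841 in lard livers, against 499.8 and 3649 in chow livers, and 1 chow array exceeded 1 lard array. Hacd3, a dehydratase of chain elongation, had 479 and 416 in lard livers, against 722 and 728 in chow livers (-0.69, SE 0.14). Its other probe set gave -0.67 (SE 0.17). Fads3 lay at -2.05 (SE 0.65) at signals close to background with lard.

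Several genes downstream of PPAR-alpha lay above chow. Of 21 such genes outside the oxidation lists, 10 (47.6%) lay above both chow arrays and 1 below, with a median of 0.14. The first chow array was the lower in 6 of 21 genes. The chow arrays differed by a median of -0.28 (second minus first). Leaving out single arrays moved the list median between 0.0505 and 0.28. It was -0.089 with olive oil, 0.072 with coconut fat and 0.49 with fish oil, all against the same chow arrays. Angptl4, a secreted inhibitor of lipoprotein lipase, had 1311 and 1305 in lard livers, against 1056 and 516 in chow livers (0.82, SE 0.29). Cd36, a fatty acid transporter, had 504 and 228 in lard livers, against 119.7 and 205 in chow livers (1.10, SE 0.43). Ppara itself had 77.5 and 45.4 in lard livers, against 41.6 and 3.2 in chow livers. Acot1, an acyl-CoA thioesterase, had 18.3 and 29.6 in lard livers, against 8.8 and 1.5 in chow livers, at least 1.82-fold higher with lard, where fish oil livers had 989.8 and 344. Thus the Acot1 signal with lard was dim beside that with fish oil. Limma's adjusted p was 0.479 for Acot1 and 0.589 for Ppara.

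The oxidation lists themselves were mixed. In mitochondrial fatty acid oxidation, 6 of 20 genes lay above and 4 below both chow arrays (median 0.077). Cpt1a, the carnitine transferase that admits fatty acids to mitochondria, had 2749.5 and 2842 in lard livers, against 2006 and 2019 in chow livers (0.47, SE 0.25). Cpt2, its partner on the inner membrane, had 651 and 626 in lard livers, against 914 and 699 in chow livers (-0.32, SE 0.15). Acadsb, a dehydrogenase of branched short acyl-CoA, lay at -0.49 (SE 0.18), and Acot2, a mitochondrial thioesterase, at 0.48 (SE 0.20). In peroxisomal oxidation, 3 of 15 lay above and 3 below (median -0.055). Pex11a, which divides peroxisomes, had 464 and 435 in lard livers, against 284 and 157 in chow livers (1.08, SE 0.25). Crot, the carnitine transferase of peroxisomes, had 3685 and 2912 in lard livers, against 2655 and 1500.4 in chow livers (0.71, SE 0.24).

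All 5 tested genes of ketone body handling had a log2 fold change above 0, and 3 of them lay above both chow arrays (median 0.38). Acat1, the mitochondrial thiolase, had 2347 and 1901 in lard livers, against 1479 and 1455 in chow livers (0.52, SE 0.17). Bdh1, which makes beta-hydroxybutyrate, lay at 0.51 (SE 0.15) and at 0.38 (SE 0.21) on its brighter probe set. With fish oil the median of this list was 0.85, with olive oil 0.32 and with coconut fat 0.27, all against the same chow arrays.

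Of 15 genes of lipid droplets and lipolysis, Lipa among them, 5 lay above both chow arrays and 1 below (median 0.16). Plin5, the droplet coat protein of tissues that burn fat, had 60.1 and 77.9 in lard livers, against 33.8 and 18 in chow livers (1.36, SE 0.35). Plin2, the main droplet coat of hepatocytes, had 3317 and 2563 in lard livers, against 2113 and 2453 in chow livers (0.36, SE 0.17). Plin3, another coat protein, was the 1 gene below, with 209 and 181 in lard livers, against 263 and 419 in chow livers (-0.76, SE 0.30). The coat proteins of this family thus lay on both sides of chow. Of 10 genes of glycerolipid synthesis, 1 lay above and 0 below both chow arrays.

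Glucose and glycogen genes lay on both sides, 4 of 13 above and 4 below (median -0.13). Gys2, the liver glycogen synthase, had 236 and 237 in lard livers, against 405 and 410.2 in chow livers (-0.78, SE 0.16, adjusted p 0.333 by limma). Ppp1r3b, which targets a phosphatase to glycogen, had 1589 and 1609 in lard livers, against 631 and 810.1 in chow livers (1.16, SE 0.31). Pc, the pyruvate carboxylase that opens gluconeogenesis, lay at 0.47 (SE 0.17), and Foxo1, a transcription factor restrained by insulin, at 0.74 (SE 0.26). In insulin and IGF signalling, 5 of 20 lay below and 3 above. Igfbp3, a carrier of IGFs, had 299 and 316 in lard livers, against 457 and 489 in chow livers (-0.62, SE 0.16). Igfbp2 lay at -0.99 (SE 0.30), and Irs2, an insulin receptor substrate, at -0.68 (SE 0.22).

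In bile acid synthesis and transport, 5 of 17 genes lay below and 4 above both chow arrays (median -0.092). Abcb11, the bile salt export pump, had 1288 and 1584 in lard livers, against 2219.9 and 1869 in chow livers (-0.51, SE 0.16). Hsd3b7, an early enzyme of bile acid synthesis, had 279 and 600.1 in lard livers, against 777 and 595 in chow livers, so its arrays overlapped. Apolipoproteins and lipoprotein assembly genes were balanced at 4 above and 3 below of 16 (median -0.0099).

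Genes of antigen presentation by MHC class II, which display peptides on macrophages, dendritic cells and B cells, lay below chow in the lard livers. All 8 tested had a log2 fold change below 0 on their brightest probe set, and 5 of 8 had no overlap (median -0.86). RT1-Da, a rat class II alpha chain, had 439 and 361 in lard livers, against 666 and 1015 in chow livers (-1.04, SE 0.22). Cd74, the invariant chain, had 569.8 and 619.9 in lard livers, against 929.6 and 1275 in chow livers (-0.87, SE 0.19). RT1-DMa, which helps load the peptide, had 60.2 and 45.6 in lard livers, against 85 and 110.3 in chow livers (-0.85, SE 0.27). Olive oil livers had 974 and 955 for Cd74, within the range of chow, and fish oil livers 524 and 425.

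The probe sets of 2 class II genes disagreed. One RT1-Bb probe set had 2.3 and 73.4 in lard livers, against 258 and 355 in chow livers, while the other had 235 and 68.6 in lard livers, against 16.2 and 3.6 in chow livers. On this second probe set arrays of 1 diet lay far apart, for example 219 and 24.1 with olive oil and 12.3 and 108 with fish oil. For RT1-Ba, chosen after its values were seen, 1 probe set had 203 and 80.3 in lard livers, against 211 and 409.5 in chow livers. Another had 7.8 and 260.4 in lard livers, against 257 and 375 in chow livers. Yet another had 264 and 20.5 in lard livers, against 33.5 and 22.9 in chow livers. The last of its 4 probe sets had 261 and 13.7 in lard livers, against 33.8 and 19.3 in chow livers (1.21, SE 1.44). Class II genes differ in sequence between individuals of an outbred stock, and whether such differences enter these signals was not tested. With the mean of all probe sets of a gene, the list median was -0.24.

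Kupffer cell and macrophage markers, 12 tested, had 5 genes below and 0 above both chow arrays (median -0.11). Their summed signal was 5088 and 4426 in lard livers, against 5108 and 5357 in chow livers. Summed class II signal was 1609.9 and 1471 in lard livers, against 2475 and 3605 in chow livers. Class II sums thus lay further apart between the diets than the macrophage sums, and the part of cell number in this was not tested.

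Interferon-response genes lay above 0 in 20 of 24, with a median of 0.37, but only 5 lay above both chow arrays, a share of 20.8%, near that of all genes. The lard arrays differed by a median of -0.81 and the chow arrays by -0.61 (second minus first), so the first array of each diet was usually the higher. Irgm, an immunity-related GTPase, had 455 and 269.8 in lard livers, against 146 and 209.5 in chow livers (0.99, SE 0.27), and Tap1, a peptide transporter, had 148 and 71 in lard livers, against 68.4 and 35.7 in chow livers (1.01, SE 0.36). Ifit1 lay the other way, with 5.6 and 35.5 in lard livers, against 73.6 and 41.5 in chow livers (-1.67, SE 0.63). Among endotoxin sensing and inflammation genes, 5 of 20 lay below and 3 above. Cd14, the co-receptor for bacterial lipopolysaccharide, had 422 and 579 in lard livers, against 1100.3 and 1045 in chow livers (-1.11, SE 0.24, adjusted p 0.374 by limma). For Cd14, olive oil livers had 237 and 428, coconut fat livers 356 and 321 and fish oil livers 1187 and 1285, with both fish oil arrays above both chow arrays.

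Of 23 genes of endoplasmic reticulum and amino acid stress, 20 had a log2 fold change below 0, 9 lay below both chow arrays and 0 above (median -0.15). Sdf2l1, a helper of protein folding, had 223 and 223 in lard livers, against 317 and 379.9 in chow livers (-0.63, SE 0.19). Dnajb9, a co-chaperone of BiP, had 348 and 385 in lard livers, against 508 and 548 in chow livers (-0.52, SE 0.17). In collagens and matrix, 4 of 21 lay above and 2 below, with decorin low. Col1a1, the alpha chain of collagen I, had 62.2 and 81.7 in lard livers, against 27 and 33.6 in chow livers (1.16, SE 0.36). On its dimmer probe set the arrays overlapped, with 39 and 22.1 in lard livers, against 7.1 and 40.6 in chow livers (0.63, SE 0.72).

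Cell type markers checked the label of the tissue. Hepatocyte markers summed to 72978 and 73943 in lard livers, against 74164 and 76647 in chow livers, with a median change of 0.0030 over 10 genes. Of these 10, 4 (40%) lay below both chow arrays and 1 (10%) above, where all genes gave 18.3% and 21%. Erythroid markers, a sign of blood in the piece, summed to 7386 and 7119 in lard livers, against 6140.5 and 7499 in chow livers, and the ranges overlapped. Endothelial markers had 7 of 11 genes below and 1 above both chow arrays (median -0.30), with sums of 1845 and 2086 in lard livers, against 2512 and 2238 in chow livers. Decorin and the brighter probe set of Col1a1, both genes on the list of stellate cell and fibroblast markers, lay on opposite sides. That list's median over 10 genes was 0.027.

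Lard was also set against the mean of olive oil, coconut fat and fish oil, which asks whether a difference from chow was also one from other fats. Here 2 probe sets (0.0107% of 18625) passed at an adjusted p of 0.05 by limma, both lower with lard and neither with a gene symbol in the annotation, and 1351 (7.25%) had an unadjusted p under 0.05. The probe set 1388985_at had 169.9 and 204 with lard, against 772 and 739.9 with olive oil, 1152 and 579 with coconut fat and 2531 and 1699.8 with fish oil (log2 fold change -2.52, SE 0.25, adjusted p 0.0117). The probe set 1371119_at had 15.9 and 17.9 with lard, against 74.5 and 55.2 with olive oil, 88.5 and 117 with coconut fat and 90.3 and 65.3 with fish oil (-2.05, SE 0.23, adjusted p 0.024). Both were chosen after their values were seen, and chow livers had 415 and 608 for 1388985_at and 56.7 and 55.5 for 1371119_at. On each the lard arrays were the lowest of all 10. The count of 2 became 0 without the first lard array and 5 without the second.

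None of Sds, Got1 and Mettl7b passed there, with log2 fold changes of -0.84 (SE 0.38), -0.41 (SE 0.19) and -0.68 (SE 0.13) and limma adjusted p of 0.688, 0.684 and 0.342. Nearest to passing among genes with a symbol were Ubox5, Akr1c13 and Tma16. Ubox5 had 12.1 and 14.5 with lard, against 59 and 58.9 with olive oil, 53.7 and 47.6 with coconut fat and 54.3 and 56 with fish oil (-1.82, SE 0.24, adjusted p 0.0583 by limma). Its lard signals lay close to the bacterial bound of 12.8. The second Ubox5 probe set gave -0.38 (SE 0.35), and there the lard arrays overlapped those of olive oil and coconut fat. Akr1c13, an aldo-keto reductase, had 2714 and 2565 with lard, against 1739 and 1657 with olive oil, 1322 and 1437 with coconut fat and 1736 and 1671 with fish oil (0.73, SE 0.10, adjusted p 0.0685 by limma). Akr1c13 in chow livers was 2153 and 1966, so lard was above every other array. Tma16, a factor of ribosome assembly, had 2.5 and 3.9 with lard, below the bacterial bound, against 35.6 and 32.2 with olive oil, 36 and 26.1 with coconut fat and 53.6 and 45.9 with fish oil (at least 2.91-fold lower, adjusted p 0.0918 by limma).

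Further genes named on the higher side against the other fats were Acin1 (0.94, SE 0.18), Impa2 (0.90, SE 0.18), Cav2, a membrane protein of caveolae (1.55, SE 0.32), Spin2b (1.81, SE 0.38) and Ncs1, a neuronal calcium sensor (1.27, SE 0.29). On the lower side were Mybbp1a, a nucleolar protein (-1.50, SE 0.26), Daam1, which organises actin (-1.67, SE 0.30), and Cyb561d2 (-1.07, SE 0.20). None of these passed, with limma adjusted p from 0.282 to 0.552. The 2 other Acin1 probe sets gave 0.10 and 0.0090, and the 2 other Daam1 probe sets 0.11 and 0.013, so these genes rest on 1 probe set each. All 4 Cav2 probe sets had a log2 fold change above 0, between 0.78 and 1.55. On each of them, however, lard overlapped olive oil and lay above both arrays of coconut fat and of fish oil. On the probe set named, Cav2 had 228 and 249.6 with lard, against 332 and 121 with olive oil, 85.7 and 80.5 with coconut fat and 24.6 and 34.4 with fish oil.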

How the data were processed

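Livers of fasted rats on 5 diets were measured on 10 arrays, 2 per diet. The authors deposited MAS5 signals, a linear probe set intensity; the submitters' processing notes name MAS5 without a version. Every array's 2% trimmed mean was about 100, so no further scaling was applied. Of 31099 probe sets, 57 controls were removed. Values became log2(signal + 3.1), 3.1 being the 10th percentile; the dimmest 40% by mean log2 value (12417) were not tested. Gene symbols came from the platform annotation, updated through gene IDs; 1 symbol was found for 20826 probe sets, several for 436, none for 9780.

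In limma 3.58.1 (R 4.3.3), the 10 arrays entered 1 model with a term for each diet (empirical Bayes with an intensity trend, 5 residual degrees of freedom and 5.96 added), and p-values were adjusted by Benjamini-Hochberg over 18625 probe sets. Where both arrays of a diet lay at or below 12.8, the highest signal among 3 bacterial trp controls, only a bound on the fold is given. The script was tested on simulated data. Of 814 listed gene symbols, 705 were on the array and 622 were tested. Named were the genes called, a fill to 12 per direction by smallest p without overlap of the arrays, up to 4 of smallest p per list, and 6 per direction for lard against the other 3 high-fat diets. The lists and the comparison were chosen with earlier results of these data known. Replicate numbers were not taken as pairs, because no label says that they mark a shared batch or day. The differences between replicates of lard and of chow correlated at -0.003 across probe sets. Whether some genes share a batch was not tested. Alternatives were 2 other scalings, another offset, a floor, other dim filters, other trend settings, fewer diets, the replicate block, another threshold, the mean of a gene's probe sets and each array left out in turn.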

Additional observations from a re-analysis of the deposited data

How the results depend on the processing

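For lard against chow, where 3 probe sets were called, the count was 0 with quantile normalization, 0 with a floor in place of the offset, 1 with no intensity trend (Dancr), 8 in a fit of only the diets compared, 0 with the replicate number as a block, and 7 at an adjusted p of 0.10. Leaving out single arrays gave 0 to 6. The other settings gave 2 to 4. For lard against the other 3 fats, where 2 were called, the count was 5 with quantile normalization, 1 with no dim filter, 4 with a robust trend, 1 in a fit of only the diets compared, 3 with the replicate block and 5 at an adjusted p of 0.10, and leaving out single arrays gave 0 to 5. It was 0 without the first lard, first olive oil or first fish oil array, 1 without the second fish oil array or any coconut fat or chow array, and 5 without the second lard array. The cause was not tested. The labels do not say whether the replicate numbers pair the arrays. A call lost under the block therefore cannot be read as a weaker or an unchanged effect. Among 101 named genes, 4 changed sign when 1 array was left out, all through the first chow array, with log2 fold changes of -0.041 to 1.22 for Pmvk, -0.24 to 2.62 for Fads1, -0.32 to 3.03 for Scd and -0.74 to 2.59 for Fasn; none of these was called on all arrays. The median over all probe sets was -0.0088 with quantile normalization and -0.022 with a shift to the same 75th percentile. Signals near the bacterial bound limit Slpi, Ugt2b, Dancr and Acot1 to bounds.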

Other observations

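Of the housekeeping lists, that of cytosolic ribosomal proteins lay slightly below chow in the lard livers. Of 24 cytosolic ribosomal proteins, 23 had a log2 fold change below 0 and 17 (70.8%) had both lard arrays below both chow arrays, where all genes gave 18.3%. The median was -0.15, and it was -0.062 with quantile normalization and -0.21 with arrays shifted to the same 75th percentile, where the median of all genes was -0.014 and -0.050, so the direction held under both scalings while the size moved. Rpl12, a protein of the large subunit, had 2626 and 2538 in lard livers, against 3159.7 and 3263 in chow livers (-0.31, SE 0.14). Of 36 genes of oxidative phosphorylation, 29 lay below 0 (median -0.095). However, 7 (19.4%) lay below both chow arrays, near the 18.3% of all genes, and 2 lay above. The median moved between -0.24 and 0.040 when single arrays were left out. In this list the first chow array was the lower in 34 of 36 genes. Both lard arrays lay between the chow arrays in 15 (41.7%), against 15.1% of all genes.

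Several lists had genes on both sides of chow. Cell cycle genes had 5 of 20 above and 2 below both chow arrays (median 0.25), immediate early genes 6 of 21 above and 1 below (median 0.14), and clock genes 2 of 14 above and 5 below (median -0.051). Antioxidant and glutathione genes had 6 of 25 above and 7 below, acute phase genes 6 of 23 above and 4 below, and genes of cholesterol uptake and sterol sensing 2 of 14 above and 2 below. Il1r1, the interleukin-1 receptor, had 549 and 434 in lard livers, against 587 and 648 in chow livers (-0.34, SE 0.16). A second Il1r1 probe set gave -0.40 (SE 0.20), while its remaining probe set lay the other way, with 123 and 119 in lard livers, against 107 and 107 in chow livers (0.17, SE 0.26). Pericentral hepatocyte markers had 2 of 8 above and 1 below (median 0.13), and lymphocyte markers 1 of 9 above and 1 below. The short lists of other cells and tissues had few tested genes. Neutrophil markers had 2 of 2 above and 0 below (median 0.57), pancreas markers 2 of 5 above and 0 below (median 0.56), skeletal muscle and diaphragm markers 1 of 3 above and 0 below (median 0.50), adipocyte markers 1 of 5 above and 0 below (median 0.33), and cholangiocyte markers 0 of 5 above and 0 below (median -0.44). Their part in the differences above was not tested.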
